A study of Mus musculus with 25 samples.

Results

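Lipoprotein lipase (LPL) and the proteins that carry its products into cells were followed through 9 genes: *Lpl*, *Gpihbp1*, *Angptl4*, *Lmf1*, *Cd36*, *Vldlr*, *Slc27a1*, *Fabp4* and *Fabp5*. They were chosen by name from a list of the LPL and fatty acid uptake system, with earlier results of these data known and no threshold on a value, and all 9 were found among the 54752 genes of the count files. RNA was sequenced from epididymal (eWAT) and inguinal (iWAT) white adipose tissue of male C57BL/6N mice, as 25 libraries in 6 groups. In eWAT there were 4 wild type (WT) mice on normal chow diet (ND), 5 WT mice on high-fat diet (HFD) and 5 HFD-fed *Acod1*-/- mice, and in iWAT there were 3, 5 and 3. The HFD gave 60% of calories as fat and began at 5 weeks of age, and the labels give 16 weeks for 23 libraries and 17 and 18 weeks for iWAT *Acod1*-/- libraries 2 and 3. The *Acod1*-/- mice carried the mutation in every cell from conception and came from 1 line made by genome editing. In the methods, genotypes were compared between littermates of heterozygous parents, and the mice were caged singly during the diet. No ND-fed *Acod1*-/- library was analysed here, so the genotype was compared under HFD only.

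LPL is made by adipocytes and hydrolyses the triglycerides of chylomicrons and very low density lipoproteins at the capillary wall, which supplies fat cells with fatty acids after a meal. It matures in the endoplasmic reticulum with the help of LMF1, is carried across the capillary wall and anchored there by GPIHBP1, and is unfolded and inactivated by ANGPTL4, which adipose tissue makes more of in fasting. The fatty acids are then taken up with the help of CD36 and the acyl-CoA synthetase SLC27A1 (FATP1), and are bound inside the cell by the small cytosolic carriers FABP4 and FABP5. VLDLR, a lipoprotein receptor, binds triglyceride-rich particles and assists their lipolysis. Several of these genes, among them *Lpl*, *Angptl4*, *Cd36* and *Fabp4*, are known targets of the nuclear receptor PPARγ.

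The pair of carriers is shown first, because one of them changed with diet in eWAT and the other was not called there. The coding sequences of *Fabp4* (GRCm38, chromosome 3, 10204088 to 10208576, minus strand) and *Fabp5* (chromosome 3, 10012548 to 10016607, plus strand) are from GENCODE vM21. The first 300 columns of a global alignment of both are printed, 5′ to 3′, and capitals mark the bases that differ or face a gap.
Fabp4: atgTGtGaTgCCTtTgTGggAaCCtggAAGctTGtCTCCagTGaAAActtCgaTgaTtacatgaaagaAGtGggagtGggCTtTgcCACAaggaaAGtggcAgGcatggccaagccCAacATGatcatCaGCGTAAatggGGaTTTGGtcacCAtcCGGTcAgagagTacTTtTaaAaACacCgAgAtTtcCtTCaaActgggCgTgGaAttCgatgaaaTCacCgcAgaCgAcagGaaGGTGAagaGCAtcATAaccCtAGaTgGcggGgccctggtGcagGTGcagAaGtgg
Fabp5: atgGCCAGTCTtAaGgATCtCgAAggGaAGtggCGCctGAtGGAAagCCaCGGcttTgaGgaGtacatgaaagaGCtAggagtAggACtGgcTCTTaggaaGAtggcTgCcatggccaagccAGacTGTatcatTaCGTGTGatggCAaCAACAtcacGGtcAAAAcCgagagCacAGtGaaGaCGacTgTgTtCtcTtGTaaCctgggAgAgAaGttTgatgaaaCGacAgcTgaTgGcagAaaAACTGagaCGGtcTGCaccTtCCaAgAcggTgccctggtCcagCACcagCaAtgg
The whole coding sequences are 399 and 408 bases long, and 59.6% of 408 aligned columns were identical, with 12 bases as the longest identical run. No 50-base stretch of the *Fabp4* transcript occurs in another gene. Of those of the *Fabp5* transcript, 21.1% also occur in transcripts of 5 other genes, Fabp5l2 and 4 predicted genes, so *Fabp5* counts are less certain than those of the other members. The share was 4.11% for *Lpl*, 1.75% for *Slc27a1* and 0% for the rest.

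Promoters of *Cd36* and *Vldlr* are shown because their levels ran together among iWAT libraries, with *Acod1*-/- library 3 the highest of its group in both. RefSeq promoter entries were found for 4 of 9 members, and each line gives the 250 bases before a start site (GRCm38.p6), *Cd36* at chr5:17835897-17836146 on the minus strand and *Vldlr* at chr19:27216234-27216483 on the plus strand. Capitals mark TGACCT, the other strand of AGGTCA, to which nuclear receptors can bind.
Cd36 promoter: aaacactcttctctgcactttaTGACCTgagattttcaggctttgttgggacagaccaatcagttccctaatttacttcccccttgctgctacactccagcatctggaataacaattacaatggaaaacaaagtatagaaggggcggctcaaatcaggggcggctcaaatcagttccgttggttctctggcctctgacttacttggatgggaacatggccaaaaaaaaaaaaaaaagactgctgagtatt
Vldlr promoter: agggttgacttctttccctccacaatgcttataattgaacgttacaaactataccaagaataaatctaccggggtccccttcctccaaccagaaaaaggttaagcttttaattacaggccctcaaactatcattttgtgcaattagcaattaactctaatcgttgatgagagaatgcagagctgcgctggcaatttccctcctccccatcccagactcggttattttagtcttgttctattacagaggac
AGGTCA was searched on both strands and occurs in 14% of 32851 promoters of that length. It is present once in the *Cd36* window and absent from the *Vldlr* window. *Vldlr* has another entry, chr19:27216770-27217019, which is not printed and also lacks AGGTCA. The *Cd36* start site, 17835896, lies inside the annotated span of the gene (17781690 to 17888801) and not at its 5′ end. A DR1 element, the same motif repeated with 1 base between and searched on both strands, occurs in 0.0335% of promoters and in neither window, and TATAAA on the gene strand occurs in 7.59% and in neither. A match of letters is not a site, and an absent match says only that the letters are not in these windows.

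Each library had 31.41 to 52.34 M reads counted on genes. The leading digits of the library numbers in the file headers fall into a pair of sets, called series here. The digits alone do not say what kind of batch they stand for. All 7 ND-fed libraries are in series 2, with 1 HFD-fed library of each of the other 4 groups. *Acod1* had at most 9 counts in any library, so its counts do not check a genotype. All 7 adipocyte markers were present in every group, and 4 mesothelial markers, of the lining of visceral fat, summed to 23.2 to 122 CPM in eWAT and 0.341 to 7.22 CPM in iWAT, as the depot labels have it. Some libraries stood apart. Summed skeletal muscle markers were at 7125 CPM in iWAT ND library 1, summed epididymis markers at 7634 CPM in eWAT ND library 2 and at 1053 and 303 CPM in eWAT *Acod1*-/- libraries 5 and 1, and 5 lymphocyte markers at 447 to 651 CPM in iWAT ND against at most 45.1 CPM elsewhere, so lymphocyte RNA and ND feeding cannot be told apart in iWAT. Mammary and skin epithelium markers were at 531 CPM in iWAT *Acod1*-/- library 2 and at most 52.3 CPM in the other iWAT libraries, and at 312 CPM in eWAT ND library 2. With genotype in eWAT 4 of 6 epididymis markers were called higher. Mitochondrially encoded genes took 13.2% of counts in eWAT *Acod1*-/- library 2 and at most 11.6% in the others.

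In iWAT the HFD raised 7 of 9 members and lowered none, while in eWAT it raised 2 and lowered 2. Values are CPM (read counts per M reads of a library) after TMM scaling and changes are log2 fold changes ± SE from edgeR's quasi-likelihood fit, called at an adjusted p under 0.1. In iWAT *Lpl*, *Gpihbp1*, *Angptl4*, *Cd36*, *Vldlr*, *Fabp4* and *Fabp5* rose, and in eWAT *Vldlr* and *Fabp5* rose and *Gpihbp1* and *Slc27a1* fell. The groups of every one of these members were fully separate, 7 in iWAT and 4 in eWAT. The background was large: 50.1% of all genes tested were called for diet in iWAT (25.9% as higher) and 51.8% in eWAT (24.8% as higher, 26.9% as lower), and 47.1% in iWAT and 35.2% in eWAT had groups that did not overlap. The count in eWAT (4 of 9) is thus near the background and says nothing about the members as a list, and in iWAT 7 of 9 is above it. Diet and series overlap, and with the series as a term all 11 calls were kept, the weakest being *Gpihbp1* in eWAT (-0.86, adjusted p = 0.0892). All 11 were also kept when any 1 library was left out, those that stand apart included. Lymphocyte markers were high in every ND-fed iWAT library, so leaving out 1 could not remove them from the 7 iWAT calls. Within series 2 the only HFD-fed WT library of each depot lay beyond every ND-fed one for each member called. The median change of the members was 0.83 in iWAT, where that of all genes was 0.00, and 0.20 in eWAT, where that of all genes was -0.04.

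Between genotypes under HFD, 1 of 9 members was called in eWAT, *Gpihbp1*, higher in *Acod1*-/- mice, and 0 of 9 in iWAT. In eWAT 19.9% of all genes were called (9.13% as higher) and the groups of 7.14% did not overlap, and 0 of 9 members had groups that did not. In iWAT edgeR called 0% of genes. At an unadjusted p under 0.05 it found 1062 higher and 1406 lower genes but 0 of 9 members, and DESeq2 called 1072 genes and 0 of 9 members. When HFD-fed *Acod1*-/- mice were set against ND-fed WT mice, 4 of 9 members were called in eWAT and 7 of 9 in iWAT. In eWAT 3 were higher and 1 lower, where 13.5% and 13% of all genes were, 26.5% in all, and in iWAT all 7 were higher, where 34.6% of genes were called and 18.5% as higher. In eWAT the groups of 2 of 9 members, *Vldlr* and *Fabp5*, did not overlap, where those of 17.5% of genes did not. The comparisons of a depot share groups of libraries, so the count of one is not independent of the next.

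**Figure D1:**
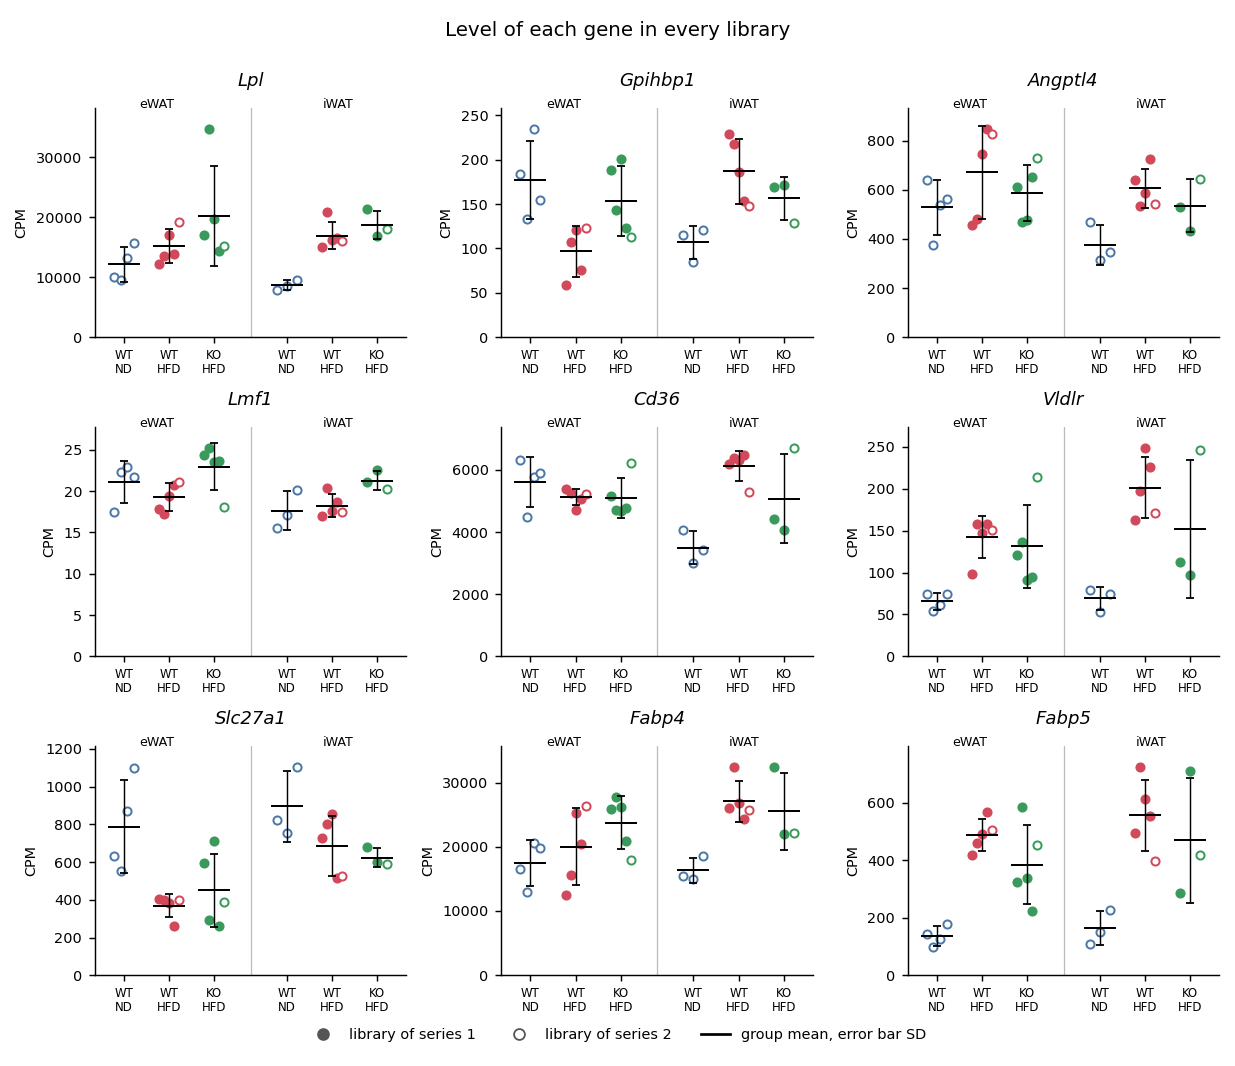
Level of each of the 9 members in every library, as CPM after TMM scaling (vertical axis, 1 panel per gene, each with its own scale). The 6 groups are along the horizontal axis. Bars give mean ± SD, filled points are libraries of series 1 and open points of series 2. In iWAT the HFD-fed WT points of 7 genes lie above every ND-fed point, and in eWAT the same holds for Vldlr and Fabp5 only.

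Counts of tissue RNA cannot tell fewer cells of a type from less RNA per cell. In eWAT, summed adipocyte markers were at 13249.5 to 19366 CPM in ND-fed, 6231 to 15295 in HFD-fed WT and 13929.5 to 20303 in HFD-fed *Acod1*-/- mice, with 5 of 7 called lower for diet and 5 higher for genotype. Endothelial markers were at 960.1 to 1531, 474 to 839 and 663 to 1054 CPM, with 8 of 10 lower for diet and 1 higher for genotype. Macrophage markers ran the other way, at 639 to 1108, 1658 to 5380.3 and 537 to 1765 CPM. Of these, 9 of 10 were higher and 1 lower for diet, and 9 were lower for genotype. Progenitor markers were higher for diet in 5 of 6 and lower for genotype in 3. In iWAT the HFD raised 3 of 7 adipocyte, 8 of 10 endothelial, 7 of 10 macrophage and 5 of 6 progenitor markers. It lowered 5 of 5 lymphocyte, 5 of 5 skeletal muscle and 4 of 5 brown adipocyte markers, and 0 of any list was called for genotype. The part of these shifts in the members' changes was not tested, beyond the ratios given further on.

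**Figure D2:**
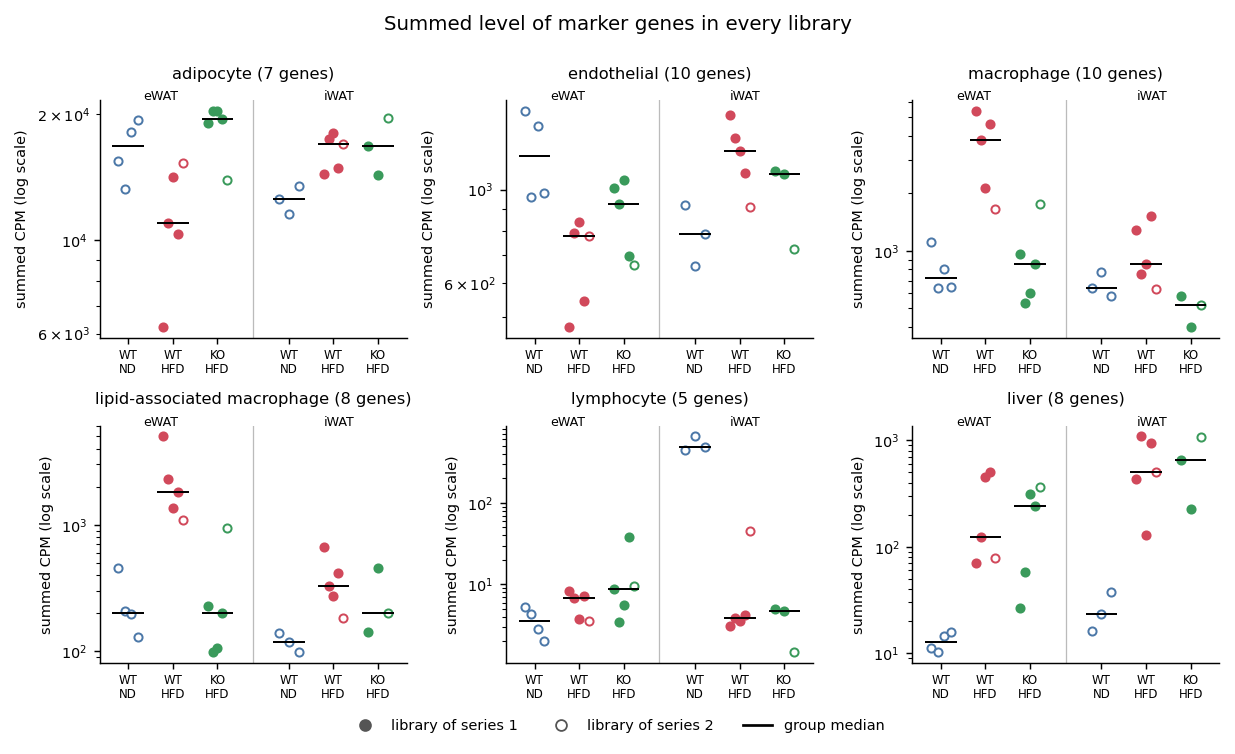
Summed CPM of 6 marker lists in every library (vertical log axis) by group (horizontal axis), with a bar at the group median. The medians of macrophage and lipid-associated macrophage sums are highest in HFD-fed WT eWAT, lymphocyte sums are at 447 CPM or more in ND-fed iWAT only, and liver sums are at 37.4 CPM or less in ND-fed tissue.

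*Lpl* (chromosome 8, 68880491 to 68907448, plus strand) took 0.891% to 2.88% of all counted reads. In iWAT its level was 7927, 8612 and 9599 CPM in the ND-fed mice and 15104, 20826, 16157, 16588 and 16002 in the HFD-fed WT mice. All 5 HFD-fed libraries lay above all 3 ND-fed ones, and the change was 0.99 ± 0.17, or 1.98-fold (adjusted p = 0.00116). In eWAT the ND-fed values were 10152, 9575, 13224 and 15775 CPM and the HFD-fed WT values 12282, 13588, 16996, 13941 and 19221. These groups overlapped, and the change of 0.32 ± 0.27 was not called (adjusted p = 0.348). HFD-fed *Acod1*-/- eWAT had 17020.5, 34761, 19669.5, 14394 and 15245 CPM, with library 2, the one of high mitochondrial share, far above the others. Against HFD-fed WT mice the change was 0.41 ± 0.25 (adjusted p = 0.304). Against ND-fed mice it was 0.73 ± 0.27 (adjusted p = 0.0787), and that call was lost without *Acod1*-/- library 2 (0.45, adjusted p = 0.179) and without any of ND libraries 1, 2 and 3. In iWAT the *Acod1*-/- values of 21399, 16910.5 and 18033 CPM overlapped those of HFD-fed WT mice (0.13 ± 0.16, adjusted p = 0.750) and lay above every ND-fed one (1.11 ± 0.18, adjusted p = 0.00154).

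*Gpihbp1* (chromosome 15, 75596628 to 75599481, plus strand), the capillary anchor of LPL, went in opposite directions in the depots. In eWAT it was at 184, 133, 234 and 155 CPM in ND-fed and 58.5, 107, 120.3, 76.0 and 123 in HFD-fed WT mice. Every HFD-fed library was lower, although the nearest pair, 123 and 133 CPM, was close. The change was -0.86 ± 0.24 (adjusted p = 0.0126), 1.82-fold lower, and it was called in all 14 fits that left out 1 library. In iWAT it was at 115, 85.3 and 120.3 CPM in ND-fed and 229, 218, 186, 153 and 148 in HFD-fed WT mice, all of the latter higher, a change of 0.83 ± 0.18 or 1.78-fold (adjusted p = 0.00409). The difference between the depots' diet changes, tested as an interaction in a fit of all 25 libraries, was -1.67 ± 0.33 (eWAT minus iWAT, adjusted p = 0.00125). That test called 2 of 9 members, with *Cd36* and both negative, where 29% of all genes were called and 15% were negative. It also called 5 of 5 lymphocyte markers, all positive, and their part was not tested.

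*Gpihbp1* was also the 1 member called for genotype. HFD-fed *Acod1*-/- eWAT had 188, 143, 200.04, 123 and 113 CPM, of which all but 2 libraries were above the highest HFD-fed WT value, so the groups overlapped. The change was 0.66 ± 0.23 (adjusted p = 0.0785). It is not firm: leaving out 1 library kept the call in 8 of 14 fits and lost it without WT HFD libraries 1, 2 or 4 or *Acod1*-/- libraries 1, 2 or 3 (adjusted p up to 0.185), with the change between 0.52 and 0.76. In the HFD-fed libraries of series 1 alone it was 0.84 (adjusted p = 0.0472). Against ND-fed mice the *Acod1*-/- change was -0.20 ± 0.24 (adjusted p = 0.575). In iWAT the *Acod1*-/- values of 169, 171 and 129 CPM overlapped those of HFD-fed WT mice (-0.28 ± 0.18, adjusted p = 0.456), and the interaction of depot and genotype was 0.92 ± 0.32 (adjusted p = 0.371).

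*Angptl4* (chromosome 17, 33773750 to 33781830, minus strand), the inhibitor that inactivates LPL, rose with HFD in iWAT together with its target. Its values were 469, 315 and 348 CPM in ND-fed and 640.3, 534, 588, 727 and 541 in HFD-fed WT mice, a separation of groups with a change of 0.72 ± 0.18 or 1.64-fold (adjusted p = 0.00936). In eWAT the ranges were 375 to 639.9, 459 to 847 and 471 to 728 CPM in ND-fed, HFD-fed WT and HFD-fed *Acod1*-/- mice, which overlapped. The diet change there was 0.35 ± 0.22 (adjusted p = 0.222), and it was called without HFD-fed WT library 1 (adjusted p = 0.0923). The genotype changes were -0.20 ± 0.21 in eWAT and -0.20 ± 0.18 in iWAT (adjusted p = 0.573 and 0.619).

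*Lmf1* (chromosome 17, 25579085 to 25662826, plus strand), the maturation factor of LPL, had a low level in a narrow range. Its group means ran from 17.6 ± 2.34 CPM in ND-fed iWAT to 23.0 ± 2.79 CPM in HFD-fed *Acod1*-/- eWAT (SD, n = 3 and 5), and all 25 values lay between 15.6 and 25.2 CPM. The diet changes were -0.13 ± 0.12 in eWAT and 0.08 ± 0.12 in iWAT, and neither was called (adjusted p = 0.403 and 0.631). In eWAT 4 of 5 *Acod1*-/- libraries were above every HFD-fed WT one and library 5 was not. The genotype change was 0.25 ± 0.12 (adjusted p = 0.165), and it was called without library 5 (0.32, adjusted p = 0.0527) and in series 1 alone (0.35, adjusted p = 0.0728), which leaves out the same library and 1 of WT. Library 5 is the one with epididymis markers at 1053 CPM, and their part in its value was not tested.

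*Cd36* (chromosome 5, 17781690 to 17888801, minus strand), the fatty acid translocase at the cell surface, rose with HFD in iWAT and was not called in eWAT. In iWAT it was at 4056, 3013 and 3414 CPM in ND-fed and 6201, 6384, 6331, 6474 and 5293 in HFD-fed WT mice. All HFD-fed values were higher, by 0.84 ± 0.19 or 1.79-fold (adjusted p = 0.00563). In eWAT it was at 6318, 4473, 5765 and 5915 CPM in ND-fed and 5378, 5270.5, 4712, 5061 and 5213 in HFD-fed WT mice, groups that overlapped (-0.13 ± 0.14, adjusted p = 0.472), and at 5159, 4702, 4669, 4785 and 6207 in *Acod1*-/- mice (-0.01 ± 0.13 for genotype, adjusted p = 0.978). The difference between the depots' diet changes was -0.94 ± 0.22 (adjusted p = 0.00366). In iWAT *Acod1*-/- libraries 1 and 2 had 4431 and 4072 CPM, below every HFD-fed WT library, and library 3, of series 2 and labelled 18 weeks, had 6714, above them all. The genotype change of -0.29 ± 0.19 was not called (adjusted p = 0.471), and it was called as lower without library 3 (-0.53, adjusted p = 0.0573) and in series 1 alone (-0.57, adjusted p = 0.0487). Without library 3 the fit called 2664 of all genes for genotype.

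*Vldlr* (chromosome 19, 27216484 to 27254231, plus strand) rose with HFD in both depots. In eWAT it was at 74.1, 53.7, 61.2 and 74.5 CPM in ND-fed and 98.2, 159, 147, 158 and 151 in HFD-fed WT mice. Library 1 of the HFD-fed WT mice was lower than the other 4 of its group and still above every ND-fed one. The change was 1.12 ± 0.24 or 2.17-fold (adjusted p = 0.00274). In iWAT the values were 79.8, 53.4 and 74.8 CPM and 163, 198, 249, 226 and 171, a change of 1.57 ± 0.31 or 2.97-fold (adjusted p = 0.00247). The depots' diet changes differed by -0.42 ± 0.38, which was not called (adjusted p = 0.457). *Acod1*-/- mice had 121, 136, 91.5, 95.1 and 214 CPM in eWAT and 113, 97.0 and 246 in iWAT. In both depots 1 library, eWAT 5 and iWAT 3, was well above the rest, and both are of series 2. The genotype changes of -0.12 ± 0.22 and -0.42 ± 0.30 were not called (adjusted p = 0.755 and 0.508). Without iWAT library 3 the iWAT change was -0.94 (adjusted p = 0.0276), and in series 1 alone -0.99 (adjusted p = 0.0347). The fit without that library called 2664 of all genes for genotype. Against ND-fed mice *Vldlr* was higher in *Acod1*-/- mice of both depots, by 0.998 ± 0.23 in eWAT and 1.15 ± 0.33 in iWAT (adjusted p = 0.0171 and 0.0253).

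*Slc27a1* (chromosome 8, 71568882 to 71587302, plus strand), which couples uptake of a fatty acid to its activation, fell with HFD in eWAT. It was at 630.0, 552, 871 and 1096 CPM in ND-fed and 403, 397, 381, 261 and 399 in HFD-fed WT mice. Every HFD-fed value was lower, by 2.14-fold in the fit (-1.10 ± 0.29, adjusted p = 0.00914). *Acod1*-/- eWAT was spread from 264 to 709.8 CPM, with libraries 1 and 3 among the ND-fed values and the other 3 near those of HFD-fed WT mice (0.29 ± 0.27 for genotype, adjusted p = 0.520). Against ND-fed mice the change was -0.81 ± 0.29 (adjusted p = 0.0696), a call lost without ND libraries 3 or 4 or *Acod1*-/- libraries 2 or 4. In iWAT the values were 825, 754 and 1106 CPM, 726, 801, 857, 517 and 524 and 680.3, 598 and 589 in ND-fed, HFD-fed WT and *Acod1*-/- mice. The diet change there was -0.36 ± 0.19 (adjusted p = 0.159) and the genotype change -0.16 ± 0.20 (adjusted p = 0.734).

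*Fabp4*, the main fatty acid carrier of the adipocyte, took 1.36% to 3.12% of all counted reads. In iWAT it was at 15478, 14949 and 18574 CPM in ND-fed and 26014, 32473, 26858, 24252 and 25748 in HFD-fed WT mice, all of the latter higher, by 0.76 ± 0.19 or 1.69-fold (adjusted p = 0.00881). In eWAT it ran from 12942 to 20614 CPM in ND-fed, 12528 to 26326 in HFD-fed WT and 17921 to 27771 in *Acod1*-/- mice. These ranges overlapped, and the changes of 0.20 ± 0.24 for diet and 0.24 ± 0.23 for genotype were not called (adjusted p = 0.529 and 0.512). In iWAT *Acod1*-/- mice had 32410.4, 21920.5 and 22188 CPM (-0.11 ± 0.19 for genotype, adjusted p = 0.818).

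*Fabp5*, the carrier shared by adipocytes, macrophages, endothelium and skin, rose most among the members in both depots. In eWAT it was at 144, 97.1, 127 and 179 CPM in ND-fed and 419.7, 458, 491, 568 and 507 in HFD-fed WT mice. The lowest HFD-fed value was far above the highest ND-fed one, and the change was 1.84 ± 0.25 or 3.57-fold (adjusted p = 0.000319). In iWAT it was at 110.0, 152 and 228 CPM and 493, 725, 613, 552 and 399, a change of 1.79 ± 0.33 or 3.46-fold (adjusted p = 0.00175). *Acod1*-/- mice had 326, 585, 338, 224 and 452 CPM in eWAT and 284, 709 and 417 in iWAT. Library 2 of each was the highest of its group, and the groups overlapped those of HFD-fed WT mice (-0.35 ± 0.22 and -0.27 ± 0.31 for genotype, adjusted p = 0.329 and 0.716). In iWAT library 2 is the one with mammary and skin epithelium markers at 531 CPM, against 2.53 and 3.94 in the other *Acod1*-/- libraries. The part of these cells in its value was not tested, and without it the genotype change in iWAT was -0.66, not called. Every *Acod1*-/- library of both depots stayed above every ND-fed library of its depot, by 1.49 ± 0.25 in eWAT and 1.53 ± 0.35 in iWAT (adjusted p = 0.00634 and 0.00916). In eWAT 8 of 8 lipid-associated macrophage markers rose with diet and 8 of 8 fell with genotype, from 1089 to 4996 CPM in HFD-fed WT to 99.3 to 944 CPM in *Acod1*-/- mice. In iWAT 6 of 8 rose with diet and 0 were called for genotype, with sums of 182 to 663 CPM in HFD-fed WT mice. The part of these cells in the *Fabp5* levels was not tested beyond its ratio to macrophage markers.

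**Figure D3:**
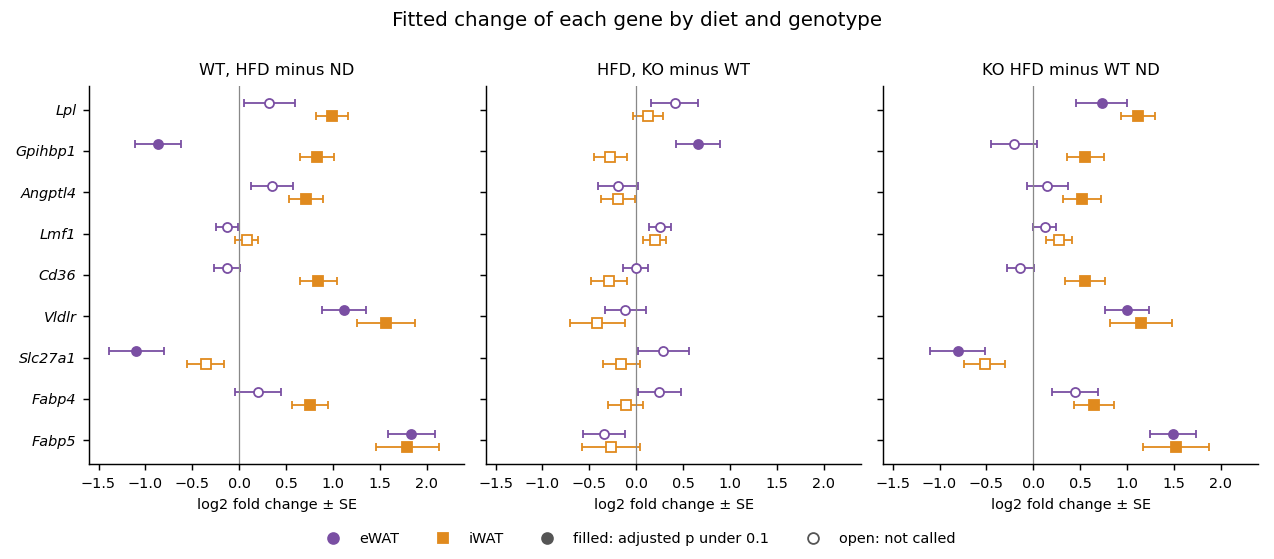
Log2 fold change ± SE of each member (horizontal axis) for diet, genotype and HFD-fed Acod1-/- against ND-fed WT mice (panels), in eWAT and iWAT, with filled points where the adjusted p was under 0.1. For diet, 7 iWAT and 4 eWAT points are filled; for genotype, Gpihbp1 in eWAT alone is filled.

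The remaining *Acod1*-/- against ND changes in iWAT were those of *Gpihbp1* at 0.55 ± 0.20, *Angptl4* at 0.52 ± 0.20, *Cd36* at 0.55 ± 0.21 and *Fabp4* at 0.65 ± 0.21, all called as higher (adjusted p = 0.0587, 0.0769, 0.0761 and 0.0407). *Lmf1* at 0.28 ± 0.14 and *Slc27a1* at -0.52 ± 0.22 were not called (adjusted p = 0.159 and 0.105). The *Acod1*-/- and ND-fed groups were separate for 8 of 9 members, all but *Angptl4*, where the background was 36.9%. In eWAT the corresponding changes not yet given were 0.15 ± 0.22 for *Angptl4*, 0.12 ± 0.12 for *Lmf1*, -0.14 ± 0.14 for *Cd36* and 0.44 ± 0.24 for *Fabp4*, none of them called. With the 16-week iWAT *Acod1*-/- library as the only one of its group, the change was 1.30 for *Lpl*, 0.70 for *Vldlr* and 0.99 for *Fabp4*. A group of 1 library has no spread of its own, so these are given as sizes only.

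Levels differed widely between members, and the order depends on the length used. Per length, as TPM (CPM per transcript length, scaled to a fixed sum) with the deposited cDNA lengths, the ND-fed eWAT means were 11836 ± 1779.8 for *Fabp4*, 4808 ± 876 for *Cd36* and 3525 ± 613 for *Lpl*. *Angptl4* at 459.6 ± 118 and *Slc27a1* at 408 ± 103 TPM followed and did not differ beyond their spread, and then came *Gpihbp1* at 211 ± 46.7 and *Fabp5* at 118 ± 28.9. The lowest were *Vldlr* at 20.1 ± 3.99 and *Lmf1* at 4.73 ± 0.355 TPM (SD, n = 4). Per kilobase of the main coding transcript instead, *Lpl* (2960.2 CPM per kb) stood above *Cd36* (1653) and *Lmf1* (11.4) above *Vldlr* (8.26), so these neighbours have no fixed order. *Gpihbp1* (214 CPM per kb) likewise stood above *Angptl4* (160), the reverse of their order by TPM. *Fabp4* was first on both scales in all 6 groups. In HFD-fed WT eWAT *Fabp5* was at 375 ± 24.9 TPM and above *Slc27a1* (176 ± 42.9) and *Gpihbp1* (104 ± 28.5), which had been above it in ND-fed eWAT.

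Between depots, ND-fed eWAT was above ND-fed iWAT in *Gpihbp1*, by 0.72 ± 0.26 (adjusted p = 0.0436), and in *Cd36*, by 0.69 ± 0.17 (adjusted p = 0.00506), 2 of 9 members where 31.7% of all genes were called and 17.5% as higher in eWAT. The groups of both did not overlap, where those of 35.9% of genes did not. Of the endothelial markers 5 of 10 were higher in ND-fed eWAT, and 5 of 5 lymphocyte, 5 of 5 skeletal muscle and 5 of 5 brown adipocyte markers were lower there. The part of any of these in the ND differences was not tested. The *Gpihbp1* difference was lost without eWAT library 3 or iWAT library 2 (adjusted p = 0.123 and 0.201). In HFD-fed WT mice *Gpihbp1* was instead lower in eWAT, with a difference of -0.95 ± 0.21 (adjusted p = 0.00547), and *Slc27a1* was also lower in eWAT, with -0.90 ± 0.24 (adjusted p = 0.0189), again 2 of 9, where 18.6% of genes were called and 7.75% as lower in eWAT. There 10 of 10 endothelial and 5 of 7 adipocyte markers were lower in eWAT, and the part of either in these differences was not tested. The groups of 3 of 9 members did not overlap, where those of 12.2% of genes did not: both of these and *Vldlr* (98.2 to 159 CPM in eWAT, 163 to 249 in iWAT), whose change was not called (-0.50 ± 0.24, adjusted p = 0.188). In *Acod1*-/- mice edgeR called 0 of 9 members between depots, with changes from -0.47 to 0.13, where 3.81% of genes were called. For the interaction of depot and genotype it called 0 of 9, where 0.00665% of genes were. At an unadjusted p under 0.05 these were 0 and 1 (*Gpihbp1*), and DESeq2 called 0 in both. The labels do not say which libraries of the depots come from 1 mouse.

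Ratios within a library set members against each other and against marker lists. They were compared with a two-sided exact permutation test over libraries, 24 tests in all, and p could not go below 0.0159 for diet in eWAT, 0.00794 for genotype in eWAT or 0.0357 in iWAT. After adjustment over the 24 tests the lowest value was 0.0952, so no ratio passed 0.05, the threshold used for these exact tests. With such smallest possible values most of the tests could hardly reach 0.05 after adjustment, so that outcome says little about the ratios. Ratios at 0.0952 would pass the 0.1 used for genes. *Fabp5* over *Fabp4* had medians of 0.00811, 0.0278 and 0.0129 in ND-fed, HFD-fed WT and *Acod1*-/- eWAT. It was higher after HFD by 1.70 on the log2 scale with no overlap (exact p = 0.0159, adjusted 0.0952). Between genotypes the difference was -0.69 (exact p = 0.0476, adjusted 0.143), lower in *Acod1*-/- mice with overlapping groups. In iWAT its medians were 0.0102, 0.0223 and 0.0188, with a diet change of 1.08 and no overlap (exact p = 0.0357, adjusted 0.122).

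*Gpihbp1* over *Lpl* was lower after HFD in eWAT, with a difference of -1.22 and no overlap (exact p = 0.0159, adjusted 0.0952), and differed by -0.16 in iWAT (exact p = 0.464), where both genes rose. *Angptl4* over *Lpl* differed by -0.01 with diet in eWAT and -0.52 with genotype (exact p = 0.968 and 0.238). Over the summed adipocyte markers *Lpl* was higher after HFD in both depots, by 0.92 in eWAT and 0.57 in iWAT, with no overlap in either (exact p = 0.0159 and 0.0357, adjusted 0.0952 and 0.122). Over the summed endothelial markers *Gpihbp1* differed by -0.05 with diet in eWAT (exact p = 0.683) and by 0.19 in iWAT (exact p = 0.143). With genotype in eWAT it was higher relative to them by 0.33 (exact p = 0.0159, adjusted 0.0952). Over the summed macrophage markers *Fabp5* differed by -0.18 with diet in eWAT (exact p = 0.683) and was higher in *Acod1*-/- eWAT by 1.49 (exact p = 0.0317, adjusted 0.122). With diet in iWAT it differed by 1.27 (exact p = 0.107).

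**Figure D4:**
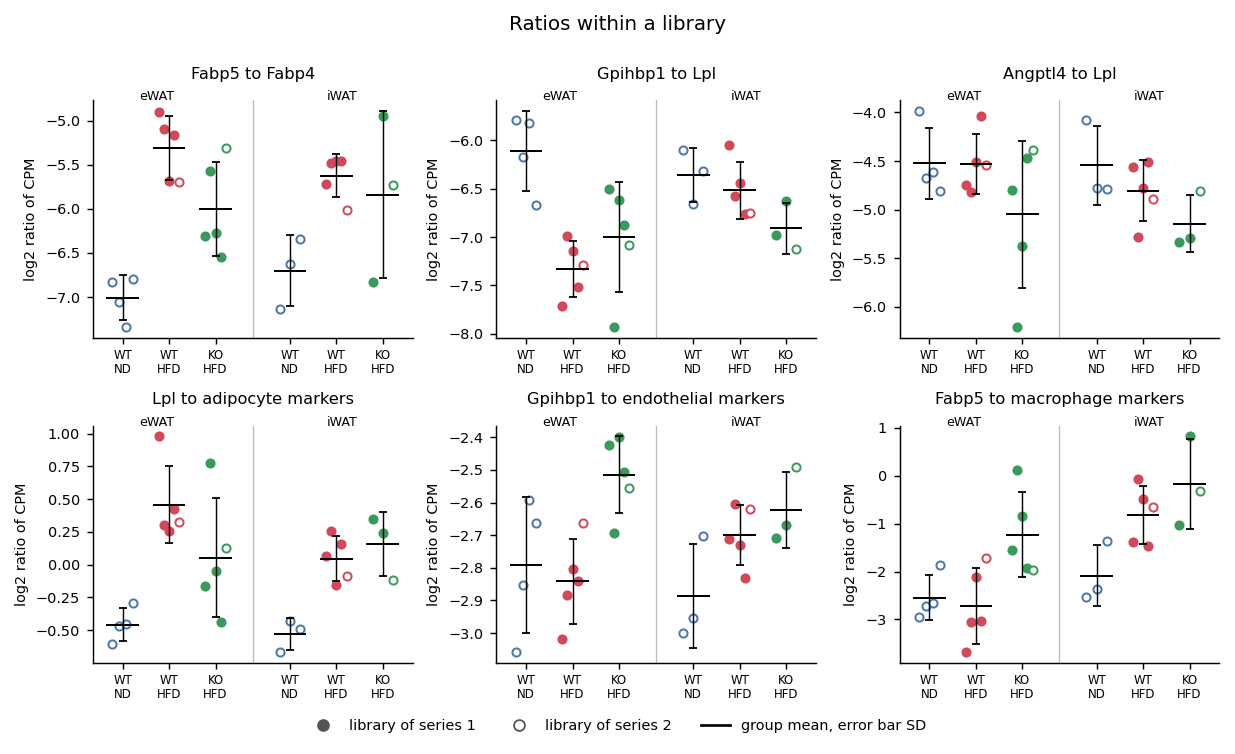
The 6 ratios in every library on a log2 scale (vertical axis) by group (horizontal axis), with a bar for the group mean. In eWAT Fabp5 over Fabp4 and Lpl over adipocyte markers are higher, and Gpihbp1 over Lpl lower, in every HFD-fed WT library than in any ND-fed library.

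The other genes of the system were taken from lists of LPL regulators, lipoprotein receptors, fatty acid uptake and trapping, PPAR regulators and endothelial fatty acid transport, 59 genes of which 55 were tested in each depot. With diet 16 rose and 13 fell in eWAT, where 24.8% and 26.9% of all genes did, and 21 rose and 4 fell in iWAT, where 25.9% and 24.2% did. By list in iWAT, 8 of 17 LPL regulators, 3 of 6 lipoprotein receptors, 7 of 18 uptake genes, 0 of 9 PPAR regulators and 3 of 5 endothelial genes rose, and 1, 1, 1, 1 and 0 fell. In eWAT 6 of 16, 1 of 6, 8 of 19, 1 of 9 and 0 of 5 rose, and 6, 2, 1, 3 and 1 fell. With genotype 4 rose and 4 fell in eWAT, where 9.13% and 10.8% of all genes did, and 0 of 55 was called in iWAT, where 0% of genes were. The shares in eWAT are near or below those of all genes and say nothing about the lists.

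In eWAT the genes that fell with the smallest adjusted p were *Sort1*, which routes LPL and other cargo through the secretory pathway, the proprotein convertases *Pcsk7* and *Pcsk6*, endothelial lipase *Lipg* and the PPAR partner *Rxra*. *Sort1* went from 551 ± 80.1 to 237 ± 46.1 CPM (-1.21 ± 0.15, adjusted p = 0.000235). *Pcsk6* changed by -0.95 ± 0.21, *Pcsk7* by -0.46 ± 0.10 and *Rxra* by -0.65 ± 0.16 (adjusted p = 0.00353, 0.00306 and 0.00697). *Lipg* was at 2.14 to 45.4 CPM in ND-fed and 0.412 to 1.67 in HFD-fed WT libraries, with its highest value in the library that held epididymis markers (adjusted p = 0.00416). Among those that rose were the LPL inhibitor *Apoc3* (3.89 ± 0.85, adjusted p = 0.00326), *Fabp1* and *Apoa5*. *Fabp1* and *Apoa5* had no count in any ND-fed eWAT library and 9.0 to 94.5 and 1.46 to 10.4 CPM in HFD-fed WT mice (adjusted p = 0.00215 and 0.00354). As background, *Apoc3*, *Apoa5* and *Fabp1* are made mainly by the liver. A list of 8 other liver genes, added after those values were seen, was at 10.2 to 15.9 CPM in ND-fed, 70.7 to 501 in HFD-fed WT and 26.5 to 369 in *Acod1*-/- eWAT, with 8 of 8 higher for diet and 2 at 0 in all ND-fed libraries. The part of liver RNA in these results was not tested.

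In iWAT *Cavin1* and *Cav1*, which build the caveolae of the adipocyte surface, were among the genes that rose. *Cavin1* went from 1085 ± 142 to 2991 ± 231 CPM (1.49 ± 0.15, adjusted p = 9.40e-05) and *Cav1* from 1589.6 ± 144 to 3726 ± 245 CPM (1.26 ± 0.18, adjusted p = 0.000396). *Fabp1* was at 0.188 to 0.898 CPM in ND-fed and 21.1 to 125 in HFD-fed WT mice, and *Apoa5* at 0 in every ND-fed library and 3.19 to 23.2 CPM in HFD-fed WT mice (adjusted p = 0.000221 and 0.000235), beside summed liver genes of 16.3 to 37.4 and 129 to 1090.2 CPM. The 4 that fell were *Sorl1*, *Fabp3*, *Rxrb* and *Lrp8*. *Sorl1*, a sorting receptor, fell by 1.66 (adjusted p = 0.000567). *Fabp3*, the carrier of muscle and brown fat, was at 13.3 to 59.0 CPM in ND-fed and 0.140 to 3.11 in HFD-fed WT mice, beside muscle markers of 5.50 to 7125 and 18.4 to 298 CPM and brown adipocyte markers of 163 to 1275 and 47.9 to 93.7 CPM. *Rxrb* changed by -0.56 ± 0.12 and *Lrp8* by -3.01 ± 0.79 (adjusted p = 0.00448 and 0.0112).

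With genotype in eWAT the lower genes included the heparan sulfate proteoglycan *Sdc1* (-1.42 ± 0.33, adjusted p = 0.0182), the lipoprotein receptor *Lrp1* (-0.84 ± 0.26, adjusted p = 0.04996) and the acyl-CoA synthetase *Acsl5* (-0.49 ± 0.15, adjusted p = 0.0558). The 4 higher genes were *Sort1* (0.67 ± 0.14, adjusted p = 0.0143), *Pcsk6* (0.63 ± 0.20, adjusted p = 0.0544), *Cav1* (0.47 ± 0.17, adjusted p = 0.0882) and *Vegfb* (0.69 ± 0.24, adjusted p = 0.0779), a growth factor of the vessel wall. *Sort1* went from 237 ± 46.1 CPM in HFD-fed WT to 377 ± 32.6 CPM in *Acod1*-/- mice (SD, n = 5 each).

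Within groups, the genes whose level ran most closely with a member were found by Pearson's r of log2 CPM after subtracting group means, over 14 libraries and 11319 genes in eWAT and 11 libraries and 11403 genes in iWAT. They are the highest of many values from libraries that share depth and tissue makeup, and are given as a description. *Gpihbp1* ran with *Cd300lg* in both depots (r = 0.95 in eWAT, 0.92 in iWAT), beside *Apcdd1* and *Arhgef15* in eWAT and *Sppl2b* and *Esam* in iWAT, and *Esam* is on the endothelial list. *Lpl* ran with *Prkaca* (r = 0.98), the catalytic subunit of protein kinase A, and with *Ppp1r1a* and *Taldo1* in eWAT, and with *Ltbr* (0.95) and *Psmf1* in iWAT. *Angptl4* ran with *Plpp1* (0.92), *Mgl2* and *B2m* in eWAT and *Vat1l* (0.96), *Prss23* and *Mbnl2* in iWAT. *Lmf1* ran with *Sra1* (0.91), *Rpa3* and *Psmb4* in eWAT and with *Ndufa4* (0.97), *Prelid1* and *Atp5o* in iWAT.

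Among the carriers and receptors, *Cd36* ran with *Ifnar2* (r = 0.95), *Slc36a4* and *Plod1* in eWAT and *Gaa* (0.97), *Pea15a* and *Tph2* in iWAT. *Vldlr* ran with *Rnf11* (0.94), *Hist1h1e* and *Slc48a1* in eWAT and *Fkbp9* (0.98), *Vps4a* and *Rmnd5a* in iWAT. For *Slc27a1* they were *Accs* (0.92), *Ednra* and *Mat2a* in eWAT and *Btbd2* (0.90), *Slc7a10* and *Lsm14b* in iWAT. For *Fabp4* they were *Selenow* (0.97), *Acp5* and *March2* in eWAT and *Msto1* (0.95), *Dynlrb1* and *Tecpr1* in iWAT. For *Fabp5* they were *Lrrc8d* (0.93), *4931406C07Rik* and *Idh1* in eWAT and *Mpdu1* (0.95), *Tmem147* and *Tmem259* in iWAT. Among the members themselves, *Cd36* and *Vldlr* ran together in iWAT (r = 0.91, and 0.61 in eWAT). In iWAT *Acod1*-/- libraries 1, 2 and 3 *Cd36* was at 4431, 4072 and 6714 CPM and *Vldlr* at 113, 97.0 and 246. How far r depends on library 3 was not tested. *Lpl* and *Fabp4* ran together in both depots (0.86 in iWAT, 0.72 in eWAT), and for *Lpl* and its inhibitor *Angptl4* r was -0.26 in iWAT and 0.00015 in eWAT.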

How the data were processed

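Per the file headers and the methods, the authors extracted RNA from snap-frozen tissue, made directional NEBNext mRNA libraries, trimmed reads with cutadapt and aligned them with STAR to GRCm38 (the submitters' notes list mm10, with bedtools). Their deposited files hold, per library, raw read counts per gene, the length of each cDNA, and FPKM values. The deposited FPKM followed from counts and lengths within 0.0005 and was not tested. The counting program and its use of strand are not given in the sources used here. GENCODE vM21 gave a symbol to 54723 of 54752 gene IDs. None of the members overlaps another gene.

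Counts were fitted per depot (3 groups), and over 25 libraries for depots and interactions, with edgeR 4.0.16 (quasi-likelihood, TMM, limma 3.58.1, R 4.3.3), after removing genes that averaged under 1 CPM. Benjamini-Hochberg adjustment covered all genes tested (14936 in eWAT, 15034 over both depots), and an adjusted p under 0.1 was called. DESeq2 1.42.0 was an alternative, beside other filters and scaling, an adjusted p under 0.05, a series term, a replicate block, fits of 2 groups, series 1 alone and each library left out. Ratios were tested with exact permutation tests in Python 3.11.15 (numpy 2.4.6, scipy 1.17.1, pandas 2.3.3, matplotlib 3.10.9). Log2 CPM used a prior count of 2. Fits were tested on simulated counts with known changes, in which 94 to 100 of 14610 to 14897 genes were changed per size. The real diet fits called 51.8% of genes in eWAT and 50.1% in iWAT. The simulated shares of missed and false calls therefore need not hold for the real comparisons. A true log2 change of 1 was called in 49% to 58% of changed genes for diet and genotype and 27.6% for depot by diet. A change of that size can thus be missed. Unchanged genes made up 6.58% to 14.2% of calls, the most for depot by diet. The libraries were 31.41 to 52.34 M counted reads deep. SD and p-values measure the spread between labelled replicates, each taken as 1 mouse from the methods, and no 2 libraries were copies of each other (lowest chi-square per degree of freedom 30.95).

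Members and lists were chosen with earlier results of these data known, and 8 liver genes were added after values of *Fabp1*, *Apoa5* and *Apoc3* were seen. All 9 members are named in each comparison. Of the other listed genes, up to 5 called genes per direction with the smallest adjusted p in the diet and genotype comparisons are named, and of the genes that run with a member, the 3 of highest r per depot. Some genes that meet these rules are not reported here.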

Additional observations from a re-analysis of the deposited data

Results flagged for a closer look

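The diet changes of 2 members differed between the depots in the fit of all 25 libraries. For *Gpihbp1* the difference was -1.67 on the log2 scale (eWAT minus iWAT, adjusted p = 0.00125), with every HFD-fed WT library below every ND-fed one in eWAT and above every ND-fed one in iWAT. For *Cd36* it was -0.94 (adjusted p = 0.00366), with separate groups in iWAT and overlapping groups in eWAT. Endothelial markers moved in the same directions as *Gpihbp1*, 8 of 10 lower in eWAT and 8 of 10 higher in iWAT, and their part in the difference was not tested beyond the ratio of both. The same test called 5 of 5 lymphocyte, 5 of 5 brown adipocyte and 3 of 5 skeletal muscle markers, all positive. Lymphocyte markers were high in every ND-fed iWAT library, on which both differences rest, and the part of these tissues was not tested.

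A single low library stood apart from the rest of its group in 4 of 36 sets of 4 or 5 values of a member, where chance alone gives about 1 in 20. These were *Lmf1* in HFD-fed *Acod1*-/- eWAT, with 18.1 CPM in library 5, and *Cd36* in HFD-fed WT iWAT, with 5293 CPM in library 5. The others were *Vldlr* in HFD-fed WT eWAT, with 98.2 CPM in library 1, and *Slc27a1* in the same group, with 261 CPM in library 4. Groups of 3 libraries, ND-fed and *Acod1*-/- iWAT, were not examined in this way.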

How the results depend on the processing

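All 11 diet calls held at the threshold of 0.1 in every fit that left out 1 library. They also held with the threshold lowered to 0.05 in the fit of all libraries, and at 0.1 with the series as a term, DESeq2's Wald test or size factors, either other filter, 2-group fits and the replicate block. Over all members, comparisons and settings, values kept their direction and side of the threshold 747 times, lost the call 28 times, gained it 9 times and reversed 17 times. With 1 library left out these were 1711, 30, 16 and 43. No reversed value was called.

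For genotype in eWAT 1 member was called. The number of members was 0 at an adjusted p under 0.05, without a filter and in a 2-group fit, where 1717, 2504 and 2304 of all genes were called. It was 2 in series 1 alone, where 3793 of all genes were. It was 0 to 2 with 1 library left out, where 1709 to 4238 of all genes were. For *Acod1*-/- against ND in eWAT (4 called) it was 2 at 0.05, without a filter, with the series term and in a 2-group fit. With 1 left out it was 2 to 4, where 2530 to 4392 of all genes were called. For genotype in iWAT (0) it was 2 in series 1 alone (*Cd36* -0.57 and *Vldlr* -0.99). With 1 left out it was 0 to 2, where 0 to 2664 of all genes were called. For *Acod1*-/- against ND in iWAT (7) it was 4 at 0.05, 3 in a 2-group fit, and 2 to 8 with 1 left out, where 3293 to 5229 of all genes were called. For depot in ND-fed mice (2) it was 1 to 3 with 1 left out, where 2931 to 5061 of all genes were called. The series term turned *Cd36* to 0.032 for diet and 0.017 for *Acod1*-/- against ND in eWAT. The fit with the 16-week *Acod1*-/- library alone, chosen after seeing the data, turned *Fabp4* to 0.25 for genotype in iWAT. For depot in *Acod1*-/- mice, *Cd36* turned to -0.0056 without a filter, to -0.0012 with DESeq2 or its size factors and to -0.031 with the replicate block, which also turned *Gpihbp1* to 0.17, *Angptl4* to -0.037 and *Fabp4* to 0.086, and the 16-week library alone turned *Lpl* to -0.073, *Vldlr* to 0.24 and *Fabp5* to 0.45. For depot by genotype, *Angptl4* turned to 0.038 with the series term, *Fabp5* to 0.038 with the block and to 0.62 with the 16-week library alone, and *Fabp4* to -0.021 with the latter. The cause of these changes was not tested.

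Leaving out 1 library turned the sign of small uncalled values: *Cd36* (-0.10 to 0.022) for genotype in eWAT, *Lmf1* (-0.015 to 0.16) for diet in iWAT, *Fabp5* (-0.66 to 0.029) and *Fabp4* (-0.29 to 0.010) for genotype in iWAT, *Vldlr* (-0.23 to 0.036) and *Fabp5* (-0.48 to 0.063) for depot in ND-fed mice, and *Fabp5* (-0.25 to 0.29) for depot by diet. For depot in *Acod1*-/- mice it turned *Lpl* (-0.17 to 0.20), *Gpihbp1* (-0.15 to 0.056), *Cd36* (-0.12 to 0.26), *Vldlr* (-0.46 to 0.33), *Fabp4* (-0.20 to 0.097) and *Fabp5* (-0.56 to 0.14), and for depot by genotype *Lpl* (-0.019 to 0.34), *Angptl4* (-0.16 to 0.12), *Lmf1* (-0.031 to 0.083) and *Fabp5* (-0.39 to 0.30). For ratios the ranges were, for *Fabp5* to *Fabp4*, -0.87 to -0.56 (genotype, eWAT), 0.86 to 1.25 (diet, iWAT) and -0.66 to 0.28 (genotype, iWAT), and for *Gpihbp1* to *Lpl* 0.21 to 0.56 (genotype, eWAT). They were -0.13 to 0.17 for *Angptl4* to *Lpl* (diet, eWAT), -0.59 to -0.28 (genotype, eWAT) and 0.51 to 0.63 (diet, iWAT) for *Lpl* to adipocyte markers, and -0.14 to 0.016 for *Gpihbp1* to endothelial markers (diet, eWAT). *Fabp5* to macrophage markers ran from -0.43 to 0.063 (diet, eWAT) and 1.15 to 1.74 (genotype, eWAT). With 1 iWAT library left out, the exact tests of ratios cannot reach p under 0.05. A ratio from TPM differs by a constant and was not run.

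Correlations between deviations of same-numbered libraries ran from -0.37 to 0.62 over 9 pairs of groups, and in 0 of 9 were all above 0.1, so the numbers were not taken to pair samples. With 3 to 5 library pairs in each this rule is hard to meet, and failing it does not show that the numbers do not pair. The own number was the highest in 17 of 33 library pairs. Between depots it was the highest in 3 of 3 for ND (0.053 to 0.29), 3 of 5 for HFD-fed WT (-0.083 to 0.62) and 2 of 3 for *Acod1*-/- mice (-0.14 to 0.17), and the block across depots changed no member call between depots. With the replicate block within depots, *Acod1*-/- against ND lost *Lpl* in eWAT (0.69, adjusted p = 0.172) and *Cd36* (0.53, adjusted p = 0.135) and *Fabp4* (0.64, adjusted p = 0.105) in iWAT, and gained *Slc27a1* there (-0.50, adjusted p = 0.0823). Over all genes, the number called ran over the settings from 5139 to 8087 for diet in eWAT, 1717 to 3793 (1709 to 4238 with 1 library left out) for genotype in eWAT, 1048 to 4669 for *Acod1*-/- against ND in eWAT, and 0 to 2157 (0 to 2664) for genotype in iWAT. The highest count of the last, 2664, came without *Acod1*-/- library 3 of series 2.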
